A study of Mus musculus with 36 samples.

Results

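The effect of the Mir324-null genotype common to cultures labelled macrophages, osteoclasts and osteoblasts was measured here by fitting all libraries together. The study sequenced RNA of cultures grown from long bones of 20-week-old mice, either wild type (WT) or with the genotype Mir324-null, and all 36 of its 36 libraries entered the fit. Marrow cells held for 3 days in macrophage colony-stimulating factor (M-CSF, 100 ng/mL) were plated for 5 days with M-CSF at 30 ng/mL, giving bone marrow macrophages (BMM). Plating with RANK-L added at 50 ng/mL gave the cultures labelled osteoclasts (OC). Osteoblasts (OB) grew out of bone chips, digested with collagenase, over about 6 weeks and were then kept for 18 days in 2 mM β-glycerophosphate and 50 µg/mL ascorbic acid. Each of the 3 cultures had 6 WT and 6 null libraries, so 18 libraries of each genotype were compared. The strain, the sex and the way the null allele was made are not given in the sources used here, nor whether libraries with the same number came from one mouse. P-values therefore measure the spread between these libraries. In the fit of all 36, differences of the genotype effect between cultures also enter that spread. A preparation or sequencing batch that follows genotype cannot be told apart from it.

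Mir324 encodes a small RNA hairpin from which a pair of mature microRNAs is cut, one from each arm. A microRNA guides the Argonaute complex to messenger RNAs, mostly through pairing between its seed and the 3′ untranslated region (3′ UTR), and the paired messenger is translated less and degraded faster. In bone, macrophage precursors fuse into osteoclasts that resorb matrix, and osteoblasts lay down type I collagen and mineralise it.

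The hairpin lies at chr11:70012043-70012131 on the plus strand of GRCm38 and is 89 bases long. In the GENCODE M21 annotation it overlaps an exon of Dvl2 on the same strand and lies within Acadvl on the opposite strand, where no Acadvl exon covers it. The mature sequences are printed because their seeds, bases 2 to 8 in capitals, define the sites searched for further on. They are RefSeq entries on GRCm38.p6.
miR-324-5p: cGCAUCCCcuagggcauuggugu
miR-324-3p: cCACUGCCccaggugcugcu
No value for the Mir324 transcript was used here.

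Library totals ran from 14118972 to 26347581 estimated counts, and edgeR's biological coefficient of variation was 9.43% to 12.9% in the WT groups and 18.3% to 21.9% in the null groups. Levels are given as CPM, a gene's counts scaled to a common library total. The 15 osteoclast markers summed to 32960 to 35400 CPM in WT OC but to 1241 to 1664 in null OC, near the 1029 to 1330 of the BMM libraries, so the null libraries labelled osteoclasts held little of the RNA that defines that cell. Macrophage markers were 53670 to 64820 CPM in those libraries, against 13720 to 16390 in WT OC. In bulk RNA, fewer cells of a type and less RNA per cell cannot be told apart. The part of this marker difference in the OC values that follow was not tested.

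A model with a term for culture and a term for genotype, called the joint fit here, was fitted to the gene sums of the deposited estimated counts with edgeR's quasi-likelihood test, and a gene was called at a Benjamini-Hochberg adjusted p under 0.05. Of 14268 genes tested, 6106 were called for genotype, which is 42.8% of them. Of these, 3078 (21.6% of genes tested) were higher and 3028 (21.2%) lower in null, and 1064 differed by at least 1 on the log2 scale (654 higher, 410 lower). The median log2 fold change of the tested genes was near 0 in this fit and in each culture alone.

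Few of these calls were shared by the 3 cultures. Fitted alone, BMM gave 6241 calls among 11925 genes (52.3%; 27% higher and 25.4% lower), OC 7946 among 12121 (65.6%, with 32.4% and 33.1%) and OB 4420 among 13607 (32.5%, with 15.5% and 16.9%). A test of whether the genotype effect differs between cultures called 9951 of 14268 genes (69.7%), among them 4876 of the 6106. Of 11501 genes tested in all 4 fits, 5313 were called in the joint fit, and 2402 of those had a fold change of the same sign in each culture, as did 24.5% of all 11501. Only 282 were called in the joint fit and, the same way, in each culture alone, which is 2.45% of the genes tested. Without regard to direction, 1656 of the 11501 were called in each culture alone, and the direction was the same in all 3 for 282 of these. At least 1 culture showed a call opposite to the joint fit for 762 of the 5313 (14.3%). The joint value of a gene thus depends on which cultures enter it.

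**Figure D1:**
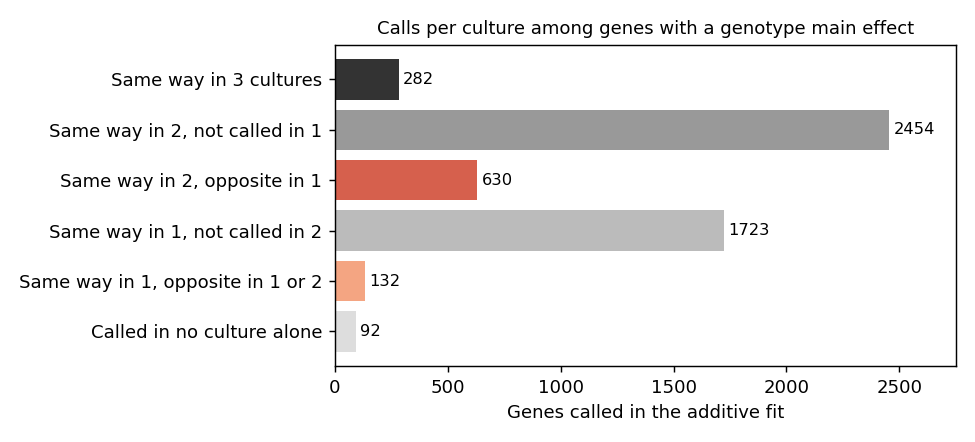
Genes called for genotype in the joint fit of 36 libraries, out of those tested in all 4 fits (5313), split by how they were called in each culture alone (x axis, number of genes). The most frequent class, with 2454 genes, was called the same way in 2 cultures and not called in the other one, and 282 were called the same way in 3.

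The 282 genes are called shared genes from here on: 151 were higher (1.31% of genes tested) and 131 lower in null (1.14%). They were picked by these fits, so their fold changes and p-values describe them and do not test them. Their median log2 fold change was 0.75 for the higher genes, with 0.77 for BMM, 0.92 for OC and 0.43 for OB, and -0.55 for the lower ones (-0.61, -0.60 and -0.34). The change was weakest in OB for 183 of them, in OC for 50 and in BMM for 49. For 77 the largest of the 3 log2 fold changes was at most 2 times the smallest. The test for a difference between cultures called 190 of the 282 (67.4%), against 75.9% of the 11501 genes tested in all 4 fits. Of the 282, 275 were protein coding. The higher shared genes had longer transcripts than the lower ones, with medians of 3030 and 1393 bases against 1904 for all genes tested.

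How firmly a gene belonged to this set varied. An offset that removes trends with transcript length and GC content within each library gave 253 shared genes, and 152 of them were among the 282. In 9 other fits, that one included, 109 of the 282 stayed shared each time (58 higher, 51 lower), and 91 of these also stayed when each library was left out in turn. The null and WT libraries did not overlap in any of the 3 cultures for 65 genes (0.565% of genes tested). Only 8 shared genes changed by at least 1 on the log2 scale in each culture: Adam23, Capn1, Ly75, Tnc, Myrf and Gm5900 were higher, and Gm15280 and Pgam2 lower. They are named because they are so few, after their values were seen, and Pgam2 was lost without any of 7 OC libraries (WT 2, 3 and 6, null 3 to 6).

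**Figure D2:**
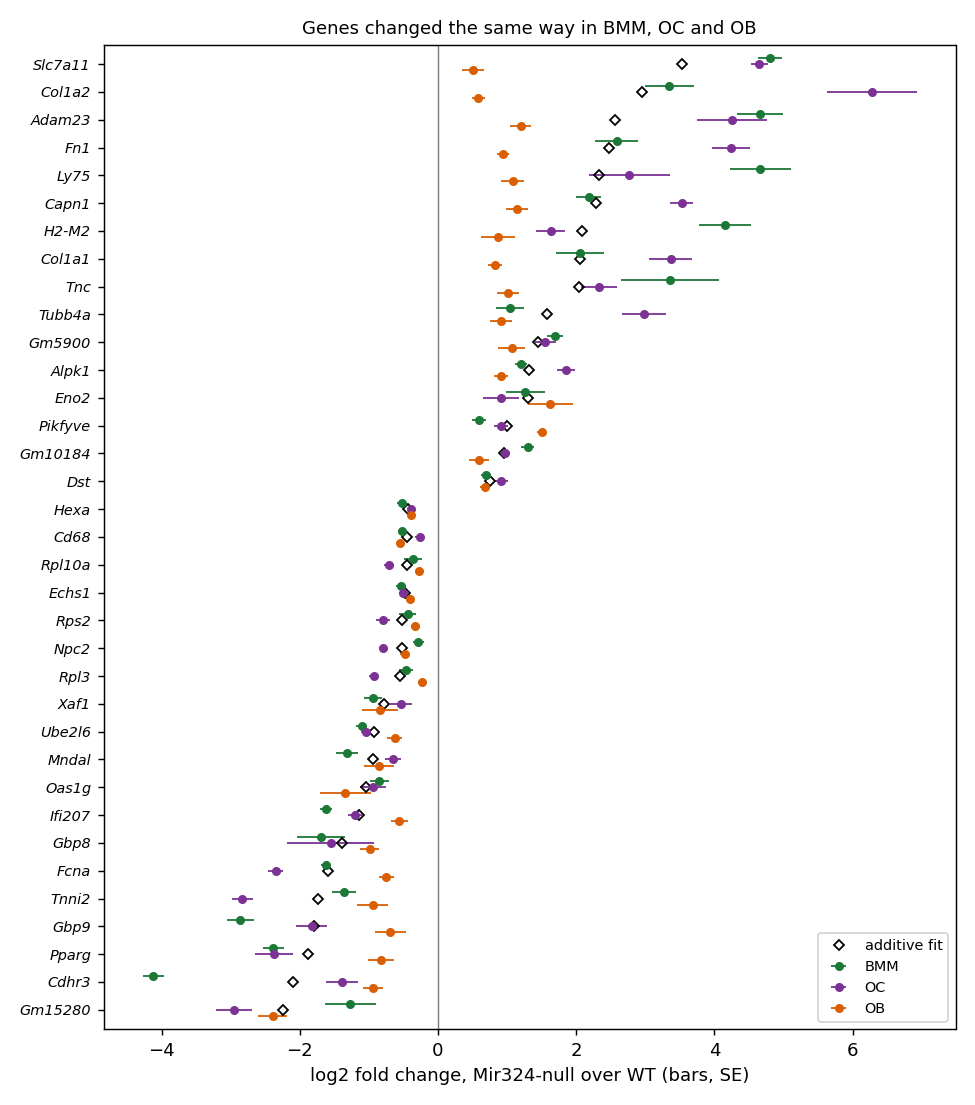
Log2 fold change, null over WT, of 35 shared genes named by rule (y axis), with circles and SE bars for each culture alone and diamonds for the joint fit of 36 libraries. For Dst, Hexa and Echs1 the 3 cultures sit close together, while for Slc7a11 and Col1a2 the joint value lies between a large change in BMM and OC and a small one in OB.

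Genes of the extracellular matrix were among the higher shared genes. Collagen chains build the fibres of bone and connective tissue, and 6 of the 17 chains tested in all fits were shared, all higher: Col1a1, Col1a2, Col3a1, Col5a1, Col5a2 and Col18a1. Each of the 6 stayed shared in all 9 other fits and with each library left out. In the joint fit 21 of 38 chains were higher and 3 lower (21.6% and 21.2% of all genes tested), with a median of 0.91 against a median near 0 for all genes. In OB alone, 28 of 38 were higher (15.5% of all genes tested there were) and none lower. BMM had 9 higher and 2 lower of 18, against 27% and 25.4% of all genes. OC had 8 higher and 6 lower of 18, against 32.4% and 33.1%, with a median of 0.04. Markers of chondrocytes, a list of 6 genes that holds the collagen Col2a1 itself, moved with the collagens in OB. Their sum there was 417.5 to 884 CPM in WT and 1065 to 2659 in null, and 4 of the 6 were higher and none lower. The cartilage collagens Col2a1, Col9a1 and Col11a2 were among the 28, with OB log2 fold changes of 2.37 ± 0.31, 2.13 ± 0.45 and 3.23 ± 0.51. The part of chondrocytes in the OB count was not tested.

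Col1a1 encodes the main chain of type I collagen. In OB its level was 31280 CPM at the lowest, 33160 at the median and 46090 at the highest WT library, against 54720, 65780 and 69920 in null. In BMM it was 6.79, 14.5 and 22.9 in WT against 35, 53.3 and 104.6 in null. In OC it was 7.51, 7.90 and 9.61 against 44.4, 73.2 and 181.2. The genotypes did not overlap in any culture, although the levels in BMM and OC were a small fraction of those in OB. The log2 fold changes were 0.83 ± 0.10 (SE) in OB, 2.05 ± 0.35 in BMM and 3.37 ± 0.31 in OC, each from 6 against 6 libraries.

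Fn1 encodes fibronectin, which links cells to collagen through integrins. Its OB libraries ranged from 2991 to 4080 CPM with a median of 3612 in WT, and from 5863 to 7639 with a median of 7002 in null. BMM libraries held 1.34 to 6.21 CPM (median 4.13) in WT and 16.1 to 31.04 (median 23) in null, and OC libraries 0.894 to 1.49 (median 1.24) and 11.2 to 37.3 (median 21.7). No null library overlapped a WT library, and the joint log2 fold change was 2.47 ± 0.29 with an edgeR adjusted p of 4.76e-08.

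Tenascin C (Tnc), a matrix glycoprotein of growing and remodelling bone, went from a median of 376 CPM in WT OB (293 to 511) to 792 in null OB (558 to 923). In OC the medians were 1.26 (0.557 to 2.26) and 6.88 (4.75 to 9.08). In BMM they were 0.494 and 5.81, with a WT library at 0 CPM and the null libraries spread from 1.83 to 15.7. The 3 log2 fold changes were 1.01 ± 0.15 in OB, 2.33 ± 0.27 in OC and 3.36 ± 0.71 in BMM. Thbs1, Emilin1 and Fbln2, which encode a thrombospondin, an elastic fibre protein and a fibulin, made up the rest of the 5 shared genes among 13 other matrix proteins tested in all fits. Fbln2 was no longer shared without null OB library 5, nor without any of WT OB libraries 3, 4 and 6. Emilin1 was lost without any of 4 BMM libraries (WT 1, 2 and 6 and null 6), and Thbs1 with the length and GC offset.

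Of the enzymes and chaperones that process collagen, 3 of 15 tested in all fits were shared and higher. Bmp1 cuts the C-terminal propeptide from procollagen, and its median rose from 75.0 to 112 CPM in OB with ranges of 53.2 to 85.4 and 94.0 to 135. In BMM it went from 0.0290 to 1.61 CPM and in OC from 0 to 2.15. Serpinh1 is the collagen chaperone HSP47 and Plod3 a lysyl hydroxylase. Both lost the shared call with the length and GC offset, and Bmp1 kept it in every fit. Plod3 also lost it without any of 11 libraries (WT OC 1, 2 and 5, null OC 2, WT OB 1, 3, 4 and 5, null OB 1, 4 and 5). In the joint fit 13 of 20 of these genes were higher and 1 lower (21.6% and 21.2% of all genes tested).

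Markers of stromal cells moved with the matrix genes in the marrow cultures. Their summed level over 12 genes was 4.75 to 6.24 CPM in WT BMM against 26.1 to 31.9 in null BMM, and 4.36 to 5.57 in WT OC against 18.95 to 45.6 in null OC. In OB the sums overlapped, at 5363 to 6994 in WT and 5089 to 6985 in null. Of the 12, 7 were higher and none lower in the joint fit (21.6% and 21.2% of all genes tested). None of the 3 tested in all fits was shared. In BMM only 3 were tested, all higher, and in OC 2 of 4 tested were higher and none lower. In OB 4 of the 12 were higher and 3 lower, with a median log2 fold change of -0.03. Among all genes tested, 27% were higher and 25.4% lower in BMM, 32.4% and 33.1% in OC, and 15.5% and 16.9% in OB. The part of stromal cells in the matrix result was not tested. The list of osteoblast markers, which holds Col1a1 and Col1a2, summed to 71470 to 95810 CPM in WT OB and 110800 to 132400 in null OB. In OC the sum was 1216 to 1671 in WT and 1850 to 3362 in null, with 5 of 7 markers tested higher and none lower. In BMM 5 of 7 were higher and 2 lower, with a median log2 fold change of 2.05, but the sum was 4237 to 6460 in WT and 1747 to 2173 in null. Spp1, one of those lower in BMM, changed there by -1.53. The part of osteoblasts in the BMM and OC values was not tested.

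**Figure D3:**
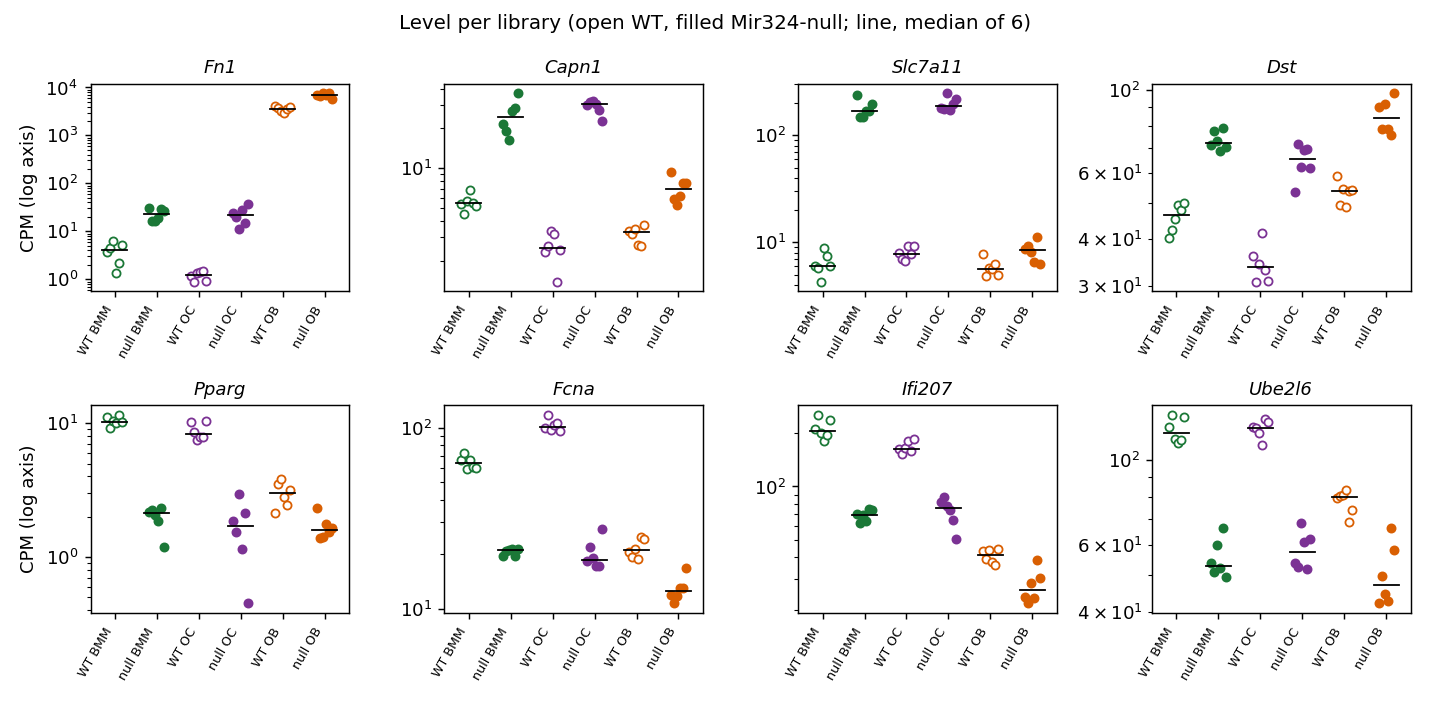
CPM of 8 shared genes in each library on a log axis, with 6 WT libraries (open) and 6 null libraries (filled) per culture and the median as a line. Fn1, Capn1, Dst, Fcna and Ube2l6 keep the genotypes apart in BMM, OC and OB, while Slc7a11, Pparg and Ifi207 have overlapping libraries in OB.

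Outside the matrix, Capn1 encodes the large subunit of calpain 1, a calcium-dependent protease of the cytoskeleton. Its libraries held 4.54 to 6.79 CPM (median 5.43) in WT BMM and 16.3 to 37.0 (median 24.3) in null BMM. In OC they held 1.39 to 3.33 (median 2.50) and 22.7 to 32.4 (median 30.4), and in OB 2.57 to 3.73 (median 3.27) and 5.27 to 9.28 (median 6.95). The genotypes did not overlap in any culture, with log2 fold changes of 2.19 ± 0.18, 3.53 ± 0.16 and 1.15 ± 0.16.

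Adam23 encodes a membrane protein of the ADAM family that lacks protease activity and binds integrins. It was almost undetected in WT marrow cultures, with 0 to 0.143 CPM in BMM and 0 to 0.206 in OC, against 2.18 to 3.21 and 0.582 to 2.40 in null. In OB the range rose from 10.1 to 19.2 (median 12.3) to 26.5 to 35.01 (median 32.1). Its log2 fold changes of 4.66 ± 0.33 in BMM and 4.25 ± 0.51 in OC rest on a few reads per WT library, and that in OB was 1.20 ± 0.15.

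Slc7a11 encodes the cystine importer that feeds glutathione synthesis. It had the largest joint log2 fold change of the shared genes, 3.53 ± 0.41, and the value was uneven between cultures. WT BMM held 4.29 to 8.88 CPM (median 5.99) and null BMM 148 to 240 (median 169), and WT OC 6.66 to 9.30 (median 7.83) and null OC 172 to 248 (median 189). In OB the ranges overlapped, at 4.83 to 7.77 (median 5.68) and 6.32 to 11.2 (median 8.44). The OB log2 fold change of 0.50 ± 0.16 had an adjusted p of 0.0245, and it was lost without any of WT OB libraries 2 and 6 and null OB library 5, and with the length and GC offset. Slc7a11 was the only one of 12 redox genes to be shared. In the joint fit 11 of the 12 were higher, against 21.6% of all genes tested, and in OB 6 of the 12 were lower, against 16.9%.

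Dst, which encodes dystonin, a linker of cytoskeletal filaments, had the smallest p-value of the shared genes. Its libraries held 40.2 to 50.0 CPM (median 46.4) in WT BMM and 68.8 to 79.3 (median 72.2) in null BMM. In OC they held 30.7 to 41.4 (median 33.6) and 53.3 to 71.6 (median 65.6), and in OB 48.6 to 58.7 (median 53.8) and 75.8 to 98.0 (median 84.3). The genotypes did not overlap anywhere, with log2 fold changes of 0.69 ± 0.07, 0.92 ± 0.09 and 0.68 ± 0.07 and a joint adjusted p of 2.48e-13. The test for a difference between cultures gave an adjusted p of 0.101.

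Alpk1, a kinase that senses a bacterial sugar, was likewise apart in every library, with log2 fold changes of 1.20 ± 0.09 (BMM), 1.85 ± 0.14 (OC) and 0.91 ± 0.10 (OB). Pikfyve, the kinase that makes PI(3,5)P2 on endosomes, had its largest value in OB, 1.5 ± 0.06, with 0.59 ± 0.10 in BMM and 0.92 ± 0.10 in OC, and was lost with an offset for average transcript length. Eno2, an enolase first known from neurons, changed by 1.27 ± 0.28 in BMM, 0.91 ± 0.26 in OC and 1.63 ± 0.33 in OB. Tubb4a, a β-tubulin, changed by 1.04 ± 0.20, 2.98 ± 0.32 and 0.91 ± 0.16. Ly75, an endocytic receptor, changed by 4.67 ± 0.45, 2.77 ± 0.59 and 1.08 ± 0.16, with overlapping libraries in OC. H2-M2, a non-classical MHC class I protein, changed by 4.16 ± 0.38, 1.63 ± 0.21 and 0.87 ± 0.24, with overlapping libraries in OB. The predicted genes Gm5900 and Gm10184 share 82.0% and 99.0% of their 31-base words with transcripts of other genes, so their reads cannot be assigned with certainty.

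Notch receptors and their ligands signal between touching cells and act on both osteoclast and osteoblast differentiation. Of the 4 tested in all fits, 3 were shared and higher, as were 1.31% of all genes. Notch1 libraries held 25.7 to 39.9 CPM (median 30.4) in WT BMM and 65.1 to 93.3 (median 75.1) in null, and 3.47 to 5.67 (median 4.54) and 58.4 to 86.5 (median 76.0) in OC. In OB the ranges overlapped, at 14.9 to 22.4 (median 16.3) and 21.9 to 27.2 (median 24.4). The log2 fold changes were 1.32 ± 0.11, 4 ± 0.14 and 0.51 ± 0.10. Notch2 changed by 0.71 ± 0.19 in BMM, 0.76 ± 0.07 in OC and 0.43 ± 0.08 in OB. The ligand gene Jag1 changed by 1.86 ± 0.18, 2.22 ± 0.16 and 0.43 ± 0.15, and its shared call was lost without any of 10 OB libraries (WT 2 to 6, null 2 to 6). With the length and GC offset only Notch1 stayed shared, and with the offset for average transcript length it was Notch1 that was lost.

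Chromatin remodelling ATPases and their partners, which move or evict nucleosomes, contributed 7 shared genes of 29 tested in all fits, all higher: Chd3, Chd4, Arid1a, Baz1b, Baz2a, Smarcc1 and Ino80d. Of all genes tested, 1.31% were shared and higher. In the joint fit 14 of 31 were higher and 4 lower (21.6% and 21.2% of all genes). By culture, 15 of 29 were higher and 4 lower in BMM, 15 of 29 higher and 8 lower in OC, and 17 of 31 higher and none lower in OB. Among all genes tested, 27% were higher and 25.4% lower in BMM, 32.4% and 33.1% in OC, and 15.5% and 16.9% in OB. Chd3, an ATPase of the NuRD complex, was apart in every library, with medians of 38.7 and 53.2 CPM in BMM, 33.1 and 52.0 in OC, and 65.8 and 91.4 in OB. Its log2 fold changes were 0.54 ± 0.07, 0.68 ± 0.10 and 0.46 ± 0.07. Chd3, Chd4, Arid1a and Baz1b stayed shared with the length and GC offset and the other 3 did not. Chd4 was lost without any of WT BMM libraries 1 and 3 and null BMM libraries 2 and 4, and Arid1a without WT BMM library 3.

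Among the lower shared genes, Pparg encodes the nuclear receptor that drives fat cell differentiation and lipid handling in macrophages. Its libraries held 9.18 to 11.6 CPM (median 10.3) in WT BMM and 1.19 to 2.34 (median 2.12) in null BMM. In OC they held 7.46 to 10.3 (median 8.25) and 0.450 to 2.98 (median 1.70). In OB they held 2.12 to 3.80 (median 2.99) and 1.40 to 2.35 (median 1.59), so the genotypes overlapped there only. The log2 fold changes were -2.38 ± 0.15, -2.37 ± 0.27 and -0.82 ± 0.19. Of the 8 genes on the adipocyte list 3 were tested, and Pparg was the only one shared.

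Fcna encodes ficolin A, a secreted lectin of innate immunity. It fell in BMM from 58.9 to 72.8 CPM (median 63.5) to 19.5 to 21.4 (median 21.0), and in OC from 96.2 to 118 (median 101) to 17.3 to 27.6 (median 18.7). In OB it went from 18.9 to 25.1 (median 21.1) to 10.7 to 16.8 (median 12.5). No library overlapped, and the log2 fold changes were -1.63 ± 0.07, -2.35 ± 0.11 and -0.75 ± 0.11. Macrophage markers moved with this gene in OB, where their sum over 14 genes was 16220 to 19890 CPM in WT and 8650 to 12330 in null. In BMM that sum was 49590 to 62000 in WT and 56940 to 67050 in null, and the markers differed among themselves, with 10 of 14 lower and 3 higher and a median log2 fold change of -0.51. In OC 12 of the 14 were higher and 1 lower, and in OB 11 were lower and none higher (median -0.62). Among all genes tested, 25.4% were lower and 27% higher in BMM, 33.1% and 32.4% in OC, and 16.9% and 15.5% in OB. The part of macrophages in the Fcna values was not tested.

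Several lower shared genes belong to the lysosome and the macrophage. Hexa encodes a lysosomal enzyme subunit that acts in ganglioside breakdown. It changed nearly alike in the 3 cultures, by -0.53 ± 0.07 in BMM, -0.39 ± 0.05 in OC and -0.39 ± 0.05 in OB, and no library overlapped. Npc2, a lysosomal cholesterol carrier, changed by -0.29 ± 0.08, -0.79 ± 0.06 and -0.48 ± 0.07 and was lost with the length and GC offset. Both are on the lysosome list of 15 genes, of which 12 were lower in OB and 11 higher in OC (16.9% and 32.4% of all genes tested). Cd68, a lysosomal glycoprotein of macrophages, went from a median of 2580 to 1784 CPM in BMM, from 2167 to 1755 in OC and from 865 to 589 in OB, and it was the only one of 14 macrophage markers to be shared. Of these 14, 11 were lower and none higher in OB. In BMM 10 were lower and 3 higher, and in OC 1 was lower and 12 higher. The part of macrophages in the Hexa, Npc2 and Cd68 values was not tested. Echs1, a mitochondrial enzyme of fatty acid oxidation, changed by -0.53 ± 0.07, -0.50 ± 0.06 and -0.40 ± 0.06 with no overlap of libraries.

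Genes induced by interferon were mostly lower. On a list of 20, 16 were lower and none higher in the joint fit (21.2% and 21.6% of all genes tested), with a median of -0.77. The cultures differed: 18 of 20 were lower in BMM, 5 lower and 4 higher in OC, and 5 lower in OB, with medians of -0.996, 0.06 and -1.05. Among all genes tested, 25.4% were lower in BMM, 33.1% lower and 32.4% higher in OC, and 16.9% lower in OB. Only Xaf1, an interferon-induced gene linked to cell death, was shared, at -0.94 ± 0.13, -0.54 ± 0.16 and -0.84 ± 0.26, and that call was lost with both length offsets and without any of 7 OB libraries (WT 1, 2 and 6, null 1 to 4). A single library decided the OB count. The list summed to 310 CPM in the lowest, 344 at the median and 1129 in the highest null OB library, number 5, against 729 to 1240 in WT. Without null OB library 5, 20 of 20 genes were lower in OB, and Irf7, Rtp4, Ddx58 and Xaf1 were shared.

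Some other genes known to respond to interferon were shared and lower. Trim56, also induced by interferon, was shared and higher, at 0.97 in BMM, 0.64 in OC and 0.56 in OB. Ube2l6 encodes the conjugating enzyme for the ubiquitin-like modifier ISG15. It held 111 to 131 CPM (median 118) in WT BMM and 49.5 to 66.2 (median 52.9) in null BMM. In OC it held 110 to 127 (median 121) and 51.9 to 68.5 (median 57.3), and in OB 68.8 to 83.4 (median 80.1) and 42.2 to 66.3 (median 47.3). Libraries did not overlap, and the log2 fold changes were -1.10 ± 0.08, -1.04 ± 0.07 and -0.62 ± 0.11.

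Of the Ifi200 family, whose proteins bind DNA in the nucleus and cytosol, 9 of 13 were lower in the joint fit and none higher, and Ifi207, Mndal and Ifi203 of 11 tested in all fits were shared. Ifi207 fell from a median of 206 to 69.3 CPM in BMM, from 164 to 75.5 in OC and from 41.0 to 26.0 in OB. The OB ranges, 36.1 to 44.4 and 21.8 to 38.3, overlapped. Only Ifi207 stayed shared with the length and GC offset, and Ifi203 was lost without any of 10 OB libraries (WT 1 to 6, null 1 to 4). The models of Mndal and Ifi203 overlap on the same strand, as do those of Gbp8 and Gbp9, so the split of reads between them is uncertain. Of the guanylate-binding proteins, interferon-induced GTPases that attack vacuoles holding pathogens, 5 of 7 were lower in the joint fit, and Gbp8 and Gbp9 of 6 were shared. Of all genes tested, 21.2% were lower in the joint fit and 1.14% shared and lower. Null OB library 5 bore on both families. Without it 5 guanylate-binding proteins in place of 2 were lower in OB, and Gbp3, Gbp7, Gbp8 and Gbp9 were shared. Of the Ifi200 family 10 in place of 4 were then lower in OB, and Ifi204 joined the 3 shared genes. Gbp8 stood at 0 to 2.04 CPM in null OC against 1.29 to 2.16 in WT OC, and its call was lost without any of 10 OC libraries (WT 1 and 3 to 6, null 1 and 3 to 6). Gbp9 was lost without any of 5 OB libraries (WT 1 and 3, null 1, 2 and 4). Oas1g, a sensor of double-stranded RNA, changed by -0.85 ± 0.14, -0.94 ± 0.19 and -1.34 ± 0.36, but it shares 55.1% of its 31-base words with other genes.

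The promoters of these genes were searched for the letters GAAANNGAAA on either strand, a form of the interferon-stimulated response element, in RefSeq windows from 250 bases before to 50 after each start. Windows around a match, the match in capitals, are printed for genes of the lower shared set, on the gene's own minus strand of GRCm38.p6.
Ifi207, chr1:173741831-173741860: cctagccaggGAAATCGAAAattaagaaca
Ifi203, chr1:173942508-173942537: aagagctgggGAAATCGAAAgctatgaaca
Oas1g, chr5:120887612-120887641: cccttctcggGAAATGGAAActgaaaatct
The Mndal window holds the same 30 letters as that of Ifi203. Of the lower shared genes with a window, 5 of 102 (4.90%) held the motif, against 355 of 8978 tested genes (3.95%), 4 of 115 higher shared genes (3.48%) and 10 of 15 genes on the interferon list (66.7%). A match is a description of letters and not a site.

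**Figure D4:**
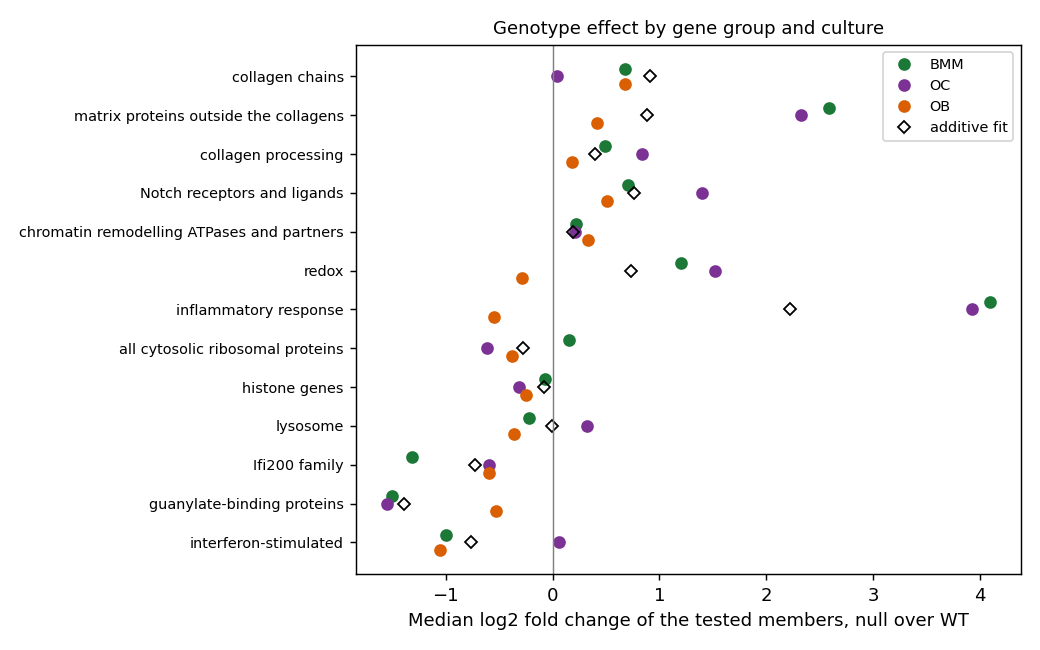
Median log2 fold change, null over WT, of the tested members of 13 gene groups (y axis) in BMM, OC and OB (circles) and in the joint fit (diamonds). Guanylate-binding proteins and the Ifi200 family lie below 0 in all 3 cultures, whereas interferon-stimulated genes lie below 0 in BMM and OB and near 0 in OC, and inflammatory response and redox genes are above 0 in BMM and OC and below 0 in OB.

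Cytosolic ribosomal proteins, which with ribosomal RNA make up the ribosome, were lower in OC and OB. Of 81 genes, 51 were lower and 1 higher in the joint fit (median -0.28, with 21.2% of all genes tested lower). In OC 73 were lower and in OB 79, while of 80 in BMM 6 were lower and 5 higher. The shares of all genes that were lower were 33.1% in OC, 16.9% in OB and 25.4% in BMM. The 6 shared ones included Rpl3, Rpl10, Rpl10a, Rpl22l1 and Rps2, of which Rps2 and Rpl3 share 48.8% and 37.6% of their 31-base words with other genes. With the length and GC offset none of the 6 stayed shared, while Rpl15 and Rps7 became so. In that fit 57 were lower and 2 higher in the joint fit, 17 were lower in BMM, 70 in OC and 25 in OB, so the count in OB fell and that in BMM rose. Histone genes had 4 shared and lower members of 28 tested in all fits, and 1 of them, Hist3h2a, stayed with that offset. In the joint fit 15 of 39 histone genes were lower and 5 higher (21.2% and 21.6% of all genes tested).

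Other lists held few or no shared genes, where 2.45% of all genes tested in the 4 fits were shared. Among all genes tested, 21.6% were higher and 21.2% lower in the joint fit, and 27% and 25.4% in BMM. The shares were 32.4% and 33.1% in OC, and 15.5% and 16.9% in OB. The inflammatory response list had 13 of 16 genes higher and none lower in the joint fit, with medians at 4.10 (BMM), 3.92 (OC) and -0.55 (OB), and no shared gene. Markers of osteoclasts had 13 of 15 lower and none higher, with a median of -5.37 in OC, -0.60 in BMM and 0.30 in OB, and no shared gene. All 7 heat shock genes were higher in the joint fit, 5 of 5 tested in BMM and 6 of 7 in OC, and none passed the test in OB. Neutrophil markers summed to 216 to 246 CPM in null BMM and 232 to 301 in null OC, against 22.5 to 26.6 and 16.4 to 20.2 in WT, while in OB the sums overlapped, at 9.22 to 12.9 in WT and 8.14 to 11.8 in null. Most of the 12 neutrophil markers were too low to test. In BMM 3 were tested and 2 were higher, and in OC 2 of 3 were higher and 1 lower. None of the 4 tested in OB was called. Erythroid markers summed to at most 0.613 CPM in any library.

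Whether genes near the Mir324 locus carried the shared effect was asked from genome position. The shared genes lay on every chromosome from 1 to 19 and on X, making up 1.06% to 3.24% of the genes tested there. Chromosome 11, which holds Mir324, had 30 of 944 (3.18%), 12 higher and 18 lower. Within 1 Mb of Mir324 it was 5 of 68 genes (7.35%), within 5 Mb 7 of 115 (6.09%) and within 10 Mb 12 of 234 (5.13%), against 2.45% of all genes tested. Genes called in the joint fit made up 50.0%, 42.6% and 43.2% of the same windows. That compares with 44.0% on chromosome 11 and 5313 of the 11501 genes tested in all 4 fits.

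The 5 shared genes within 1 Mb were Chd3 and Zbtb4, higher, and Mpdu1, Cd68 and Tnfsf13, lower. Mpdu1, Cd68 and Tnfsf13 lie within 200 kb of each other and of Zbtb4, which encodes a zinc finger protein that binds methylated DNA and which differed in the opposite direction. With the length and GC offset Chd3, Cd68 and Tnfsf13 stayed shared, and that fit gave 4 shared genes within 5 Mb in place of 7. Tnfsf13 was lost without any of 4 OC libraries (WT 1, 2 and 3, null 5), and it shares 58.4% of its 31-base words with other genes. The genes next to Mir324 itself were not shared. Dvl2, whose exon the hairpin overlaps, stood at -0.07 ± 0.06 in the joint fit (edgeR adjusted p = 0.349) and Acadvl at 0.05 ± 0.06 (adjusted p = 0.533), with Acadvl higher in BMM (0.42 ± 0.05) and lower in OC (-0.32 ± 0.06). In BMM alone Dvl2 was lower, at -0.40 ± 0.08, and it was not called in OC or OB. Gabarap and Phf23 did not pass in the joint fit, although Gabarap was higher in OC (0.42 ± 0.06) and lower in OB (-0.40 ± 0.06), and Phf23 was lower in OC (-0.30 ± 0.07). Dlg4, just beyond Acadvl, was the only one of these 5 neighbours called, at 1.18 ± 0.26, from 1.04 ± 0.20 in BMM, 3.81 ± 0.34 in OC and 0.03 ± 0.14 in OB, and that call was lost with limma-voom.

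**Figure D5:**
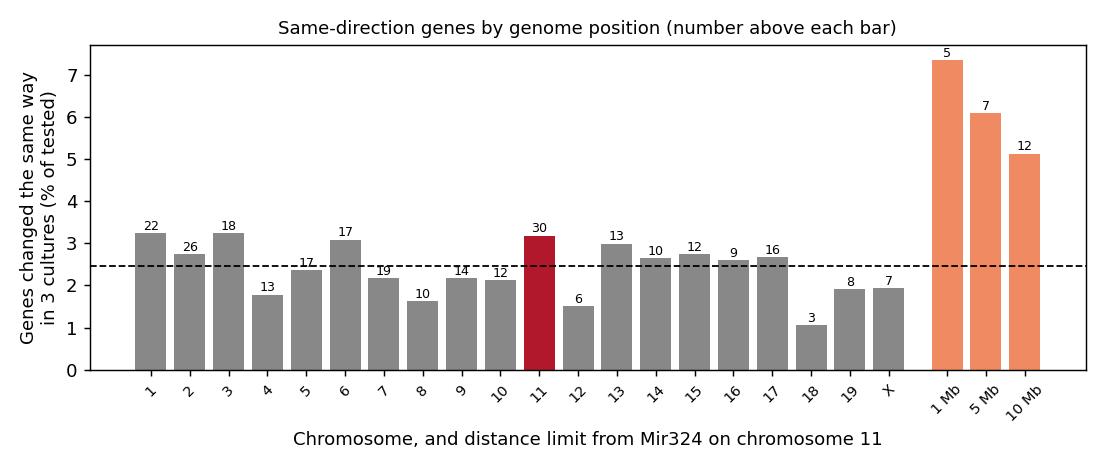
Shared genes as a percentage of the genes tested (y axis) on each chromosome (grey, chromosome 11 in red) and within 1, 5 and 10 Mb of Mir324 (orange), with their number above each bar and the overall 2.45% as a dashed line. Chromosome 11 is at 3.18%, inside the range of the other chromosomes, and the 1 Mb window is at 7.35% from 5 genes.

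Elsewhere, shared genes within 200 kb of another one formed 21 clusters with 46 genes. Col3a1 and Col5a2 are adjacent on chromosome 1 and both higher, Ifi207, Mndal and Ifi203 are adjacent there and lower, and Gbp8 and Gbp9 lie together on chromosome 5. Dst and Ccdc115, and Adam23 and Fastkd2, are neighbours that changed in opposite directions. Of 5 tested genes known to differ between C57BL/6 substrains, none was called in the joint fit, where 42.8% of all genes were. In BMM 2 of the 5 were lower and in OC 1 was higher and 2 lower, against 52.3% and 65.6% of all genes called there. Of the 5, Entpd4 and Nnt share 100% and 47.8% of their 31-base words with other genes. Gene sums do not show sequence variants and the strain is not given, so a strain difference linked to genotype was not tested.

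The 3′ UTRs of the shared genes were searched for the letters that pair with bases 2 to 8 of each mature microRNA: GGGATGC for miR-324-5p and GGCAGTG for miR-324-3p, on the transcript strand only, in the longest annotated UTR of each gene. The 5p letters were found in 23 of 146 higher shared genes (15.8%) and in 1 of 129 lower ones (0.775%), against 982 of 11159 tested genes (8.80%). The higher genes had longer UTRs, with a median of 2086 bases against 789 in the lower and 1206 in all. Per 1000 bases of UTR the 5p letters occurred 0.0613 times in the higher shared genes, 0.0148 in the lower and 0.0576 in all genes tested. The 3p letters were found in 32 of the 146 (21.9%), 16 of the 129 (12.4%) and 16.4% of all, or 0.101, 0.148 and 0.119 times per 1000 bases. Among all genes tested, those with a 5p match had a median joint log2 fold change of 0.01 and those without one -0.01.

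Matches in 4 of the most changed higher genes are printed, with the pairing letters in capitals and 10 bases on each side, on the minus strand of GRCm38.
Slc7a11, 5p, chr3:50368955-50368981: ataggtgaatGGGATGCtaagaaagcc
Notch1, 5p, chr2:26459504-26459530: acagagatgtGGGATGCaggaccccag
Unc5b, 5p, chr10:60763564-60763590: cttttatcctGGGATGCtccacgaggc
Serpinh1, 3p, chr7:99345986-99346012: ggggggggttGGCAGTGcagatcggaa
Unc5b, a netrin receptor, changed by 3.09 ± 0.30 in BMM, 3.61 ± 0.28 in OC and 0.41 ± 0.12 in OB, and it was lost with the length and GC offset. A match says only that the letters are present.

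Of the genes proposed elsewhere as miR-324 targets, 4 were tested in the joint fit. Only 2 of them were tested in all 4 fits and could be shared, and neither was. Runx2, the transcription factor that commits cells to the osteoblast lineage, was called in the joint fit at 0.26 ± 0.10 with an adjusted p of 0.0354. It stood at 0.47 ± 0.19 in BMM, -0.24 ± 0.16 in OC and 0.55 ± 0.11 in OB, and the joint call was lost in 5 other fits and without WT OB library 3 or 5. The hedgehog pathway genes Gli1 and Smo did not pass in the joint fit, at -0.14 ± 0.26 and 0.22 ± 0.32. Gli1 was tested in no culture alone and Smo in OB only.

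The variation of the shared genes was divided among the terms of the design to see how much genotype took. For all genes tested, the median share of variance was 48.1% for culture, 5.46% for genotype and 13.8% for their interaction, with 18.2% residual. For the shared genes it was 48.9% for culture, 31.7% for genotype and 4.06% for the interaction, with 8.30% residual, a description since they were chosen for this. No gene had at most 3 counts in every library of 1 genotype and at least 1 CPM in every library of the other one.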

How the data were processed

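RNA from 36 cultures was sequenced, 6 libraries in each of 6 groups. The authors deposited kallisto abundance tables, with an estimated count and a TPM for each of 88198 transcripts. The submitters' processing notes name kallisto, DESeq2 and GRCh38, a human build, but the transcript identifiers in the deposited tables are mouse Ensembl ones. Of these, 97.5% matched GENCODE M21 and 88.9% of the matched had the same length, and the unmatched held 0.63% to 0.97% of a library's counts. The deposited TPM values, which kallisto scales to transcript length and library, were used only to check the tables.

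The estimated counts of a gene's transcripts were added up and rounded to whole numbers, giving 30205 genes. Genes were filtered with filterByExpr, scaled by TMM and fitted with edgeR 4.0.16 (R 4.3.3) for all 36 libraries (culture plus genotype) and for each culture alone, and called at a Benjamini-Hochberg adjusted p under 0.05. DESeq2 1.42.0 and limma-voom (limma 3.58.1) were alternatives, beside RLE scaling, other filters, offsets for transcript length and GC content, a replicate block, and each library left out. The code was tested on simulated data. Depth sets counting error only, and the spread between libraries enters through edgeR's dispersion.

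The genes, lists and comparisons were chosen with earlier results of these data known, and the gene families were assembled after values were seen. The named genes are, among shared genes with a mean of at least 1 CPM in the higher genotype of each culture, the 10 higher and 10 lower with the largest smallest change, and the 5 of each direction with the smallest joint p. Shared genes of the lists, the neighbours of Mir324, substrain genes and proposed targets were added. Some genes that this rule names are not reported here. Other genes were named after their values were seen, as members of a family or by position.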

Additional observations from a re-analysis of the deposited data

Results flagged for a closer look

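For 37 genes and the marker sums, 246 groups of 6 libraries were screened for a highest or lowest library set apart from the other 5 by most of the group's range. There were 16 such libraries, and chance gives about 1 in 20 groups. In CPM they were Gm5900 in WT BMM 1 (6.12), Tubb4a in null OC 3 (8.80), Gbp8 in null OC 2 (2.04), Tnni2 in WT BMM 1 (6.58) and null OC 3 (1.67), Oas1g in WT BMM 6 (29.2), Dlg4 in null OC 2 (1.22), Xaf1 in null OB 5 (51.5), Rpl10a in null OC 3 (73.4), Hexa in WT OB 2 (840.0), Cd68 in WT OC 4 (2345), Col1a1 in null OC 6 (181.2), and Col1a2 in WT OC 5 (0.720) and null OB 6 (14730). The osteoblast marker sum in WT OB 6 (95810) and the neutrophil marker sum in WT BMM 6 (22.5) were the other two.

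The genotype effect differed between cultures for 30 of the 37 genes by edgeR's interaction test over 36 libraries, which 69.7% of all 14268 genes tested also passed. Among higher genes the adjusted p was 2.5e-09 for Adam23, 1.38e-09 for Capn1, 4.1e-05 for Ly75, 0.0385 for Gm5900, 0.00167 for Tnc, 7.4e-09 for Fn1, 1.76e-06 for Tubb4a, 7.68e-06 for Alpk1, 7.69e-08 for H2-M2, 0.000644 for Gm10184, 8.24e-07 for Pikfyve, 2.84e-19 for Slc7a11, 6.5e-06 for Col1a1, 2.14e-09 for Col1a2, 9.87e-12 for Dlg4 and 0.000804 for Runx2. Among lower genes the edgeR adjusted p was 0.00324 for Gm15280, 4.57e-15 for Cdhr3, 1.46e-07 for Tnni2, 1.92e-05 for Pparg, 8.9e-12 for Fcna, 1.44e-06 for Gbp9, 0.0443 for Mndal, 0.00148 for Ube2l6, 9.69e-07 for Ifi207, 1.55e-05 for Rpl3, 0.011 for Rpl10a, 0.0153 for Rps2, 0.000143 for Npc2 and 0.00419 for Cd68.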

How the results depend on the processing

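The joint fit has no term for a genotype effect that differs between cultures. A fit of 6 group means, testing the mean of the 3 genotype effects, called 7867 genes (3978 higher, 3889 lower), 5916 of them among the 6106. Without the OC libraries the joint fit called 3968 genes (1961 higher, 2007 lower), 2675 of them among the 6106. With each library left out in turn it called 5701 to 6248 (2902 to 3261 higher, 2715 to 3088 lower), BMM alone 5792 to 6323, OC 7595 to 8284 and OB 3796 to 4355, and there were 243 to 296 shared genes (124 to 159 higher, 109 to 145 lower). At an adjusted p under 0.01 in each fit 118 genes were shared (69 higher, 49 lower), with a log2 fold change of at least 1 in each fit 8 (6 and 2), and with no overlap of libraries 65 (34 and 31). DESeq2 gave 334 shared genes, limma-voom 342 and the offset for average transcript length 237. Without null OC 6 and null OB 5, an alternative chosen after seeing the data, there were 297, 246 of them among the 282. A 6-base match to the miR-324-5p seed was found in 38.4% of the higher shared genes, 18.6% of the lower and 26.2% of all tested, or 0.218, 0.185 and 0.213 times per 1000 bases of UTR. Among same-numbered libraries that differ in culture or in genotype, only 1 pair, null and WT OB, correlated above 0.1 in deviations from group means. Mean correlations ran from -0.053 (null and WT BMM) to 0.030 (null BMM and OB). A low correlation does not show that they came from different mice, so pairing by number was not settled. With the replicate number as a block, the joint fit called 5674 genes and 247 were shared, 231 of them among the 282. With genotype and number as a random block it called 8081, at a consensus correlation of -0.192. Each such block joins a library from each culture, so differences of the genotype effect between cultures enter that correlation. It therefore does not tell whether the libraries share a mouse. Of 39 named genes called in the joint fit, 37 stayed called in 14 other fits and with each of 36 libraries left out, and Dlg4 and Runx2 did not. No named gene changed sign. Depth limits genes of a few reads such as Adam23 and Bmp1 in WT marrow cultures.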

Other observations

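Shared genes outside the groups described are given here with their log2 fold changes in BMM, OC and OB. They were chosen after their values were seen, from no list and with no test, and values of both directions are shown for genes of the cytoskeleton. Cald1, which encodes the actin binder caldesmon, stood at 2.50, 5.08 and 0.29, and Fscn1, the actin bundler fascin, at 4.05, 2.23 and 0.31. Ptk2, the focal adhesion kinase, stood at 1.78, 0.52 and 0.25 and Myh9, non-muscle myosin, at 0.51, 0.19 and 0.70. Dbnl, an actin-binding adaptor, went the other way at -0.82, -0.40 and -0.18, as did the troponin gene Tnni2 at -1.36, -2.83 and -0.94.

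Plau, the urokinase plasminogen activator, stood at -2.39, -0.86 and -0.50 and Cdkn2b, a cell cycle inhibitor, at -1.29, -1.39 and -0.24. Acadl, an enzyme of fatty acid oxidation, changed by -0.43, -0.72 and -0.48 and the phospholipid transfer protein gene Pltp by -0.66, -0.78 and -0.48. These values describe genes chosen by the same fits.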
